A study of Homo sapiens with 18 samples.

Results

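Box C/D small nucleolar RNAs (snoRNAs) were followed through etoposide treatment in HEK293, a line derived from human embryonic kidney. The probes were chosen by name and detection: a gene symbol of SNORD followed by a digit, and a probe with a detection p-value under 0.05 on at least 3 of the 18 arrays. Of 176 such genes on the array platform, 71 met the rule. In every sample the cells' own p65 (the NF-kB subunit encoded by RELA) had been silenced with siRNA, and an HA-tagged p65 that the siRNA does not target had been brought in by lentivirus. 2 versions of it were used, wild type (wt) and S547A. Each line was left untreated or kept in etoposide for 4 h or 8 h, which gives 6 groups of 3 arrays. The dose of etoposide, the promoter of the lentivirus and whether a line was a clone are not given in the sources used here. No group kept its own p65, and the labels give 1 untreated group per line and none for each time, so time in culture and etoposide cannot be told apart. The series text describes the 3 repeats as independent experiments.

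Box C/D snoRNAs are short noncoding RNAs that lie in the nucleolus in a particle with fibrillarin, NOP56, NOP58 and SNU13. Most pair with ribosomal RNA (rRNA) and direct 2′-O-methylation of the paired base, and a few are needed for cleavage of the rRNA precursor. In human cells most are cut out of introns of host genes, many of which encode ribosomal proteins or are noncoding transcripts such as the SNHG genes and GAS5, while the U3 genes (SNORD3A and SNORD3D) and SNORD13 have promoters of their own. Etoposide traps topoisomerase II as a complex with broken DNA. Mature snoRNAs carry no poly(A) tail, and the labelling kit named in the labels primes on poly(A). The extraction kit named there retains short RNAs poorly. Whether a probe's signal came from the mature snoRNA, from its host's unspliced RNA or from adenylated intermediates was not tested, and the levels below are called probe levels for that reason.

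Host genes were taken as the smallest gene whose span contains the snoRNA in the RefSeq table of GRCh38.p14, with strand not compared. The 71 members had 41 hosts. Host starts are shown here because host transcripts are set beside their snoRNAs below and because snoRNA host genes are known for a run of pyrimidines at the transcription start. Each window holds 20 bases before and 10 from the annotated start on, 5′ to 3′ on the host's own strand, from RefSeq (GRCh38.p14). Capitals mark the uninterrupted run of C and T letters that includes the base before the start or either of the first 2 bases.
SNHG12 (chr1:28581864-28581893, minus strand): cttgctcgcggcttcagcgCCCTTTCTCCC
SNHG1 (chr11:62855876-62855905, minus strand): tctccccggggagattcgTTCTCatttttc
SNHG32 (chr6:31834896-31834925, plus strand): ccggcctcgccattttagTTCTTTTTgcga
TAF1D (chr11:93741486-93741515, minus strand): gggccacggaaatagccaaCCCTTTTCTTC
ZFAS1 (chr20:49278622-49278651, plus strand): ggttcaggaagccattcgTTCTTTCgcgtc
SNX5 (chr20:17968785-17968814, minus strand): cccccgcaccgaaacgcggTCTTTCTCTag
RPL3 (chr22:39319614-39319643, minus strand): gacccgtaaggccgaccggCCTCTaccggc
NOP56 (chr20:2652612-2652641, plus strand): cgccggagcgcgctagccgcaTTgcgagcc
GAS5 (chr1:173869036-173869065, minus strand): gtcgatgccatcatgaaTTCagatgtgttt
The first 7 of these windows have a run of at least 5 letters, from 5 in SNHG1 and RPL3 to 12 in SNHG12 and TAF1D (these 2 runs reach past the window), and those of NOP56 and GAS5 have runs of 2 and 3. Of the 41 hosts, 31 had an entry in the promoter table, and 16 of these (51.6%) had a run of at least 5, against 22.4% of all 35116 promoters in the table. The run was searched on the transcribed strand only and describes letters, not start sites used in these cells.

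Between 35.8% and 39.2% of the array's probes were detected per array, with median intensities from 94.7 to 122. The correlation across genes (not independent replicates) was 0.982 to 0.989 between arrays of one group and 0.956 to 0.988 between arrays of different groups. Of 6 genes listed as HEK293 markers, 5 were detected on all 18 arrays and KRT8 on 17. PTPRC, CD3E, KRT5 and KRT14, markers of blood cells and keratinocytes, were detected on 0 arrays, CD14 on 15, COL1A1 on 13 and LUM on 9. RELA itself had a log2 level of 7.80 ± 0.32 (SD, n = 3) in untreated wt and 8.86 ± 0.20 in untreated S547A cells, with 1 probe that does not separate the cells' own from the introduced RNA.

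Of the 71 members, 33 were detected on all 18 arrays, 17 on 10 to 17 arrays and 21 on 3 to 9. The other 105 SNORD genes were detected on 2 arrays (15 genes), 1 array (19) or 0 (71). At the edge of the rule, 9 members were detected on exactly 3 arrays, among them SNORD32B, SNORD12 and SNORD56B, with mean raw intensities of 109, 109 and 108 over the 18 arrays. Just outside it, SNORD67, SNORD10 and SNORD24 were detected on 2 arrays, with raw intensities of 108 each, close to those just inside. The length of the annotated RNA was also alike, with a median of 76 bases in members (55 to 237) and 75 in the other genes.

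By host class, of 42 platform genes in hosts that encode ribosomal proteins, 28 were members and 12 were detected on all arrays. Of 39 in noncoding hosts, 17 were members, 12 of them on all arrays, and of 57 in other protein genes 19 were members, 8 on all arrays. The large imprinted clusters were mostly undetected: 3 of 24 genes assigned to MEG8, the SNORD113 and SNORD114 family, were members with 3 to 11 arrays each. Of 9 assigned to SNHG14, where the SNORD115 and SNORD116 families lie, 0 were members. A gene with more than 1 containing gene was counted under the smallest, such as SNORD64 and SNORD108 under PWAR5, among the noncoding hosts. In 5 platform genes no containing gene was found, and 4 of these were members.

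The 5 members with the highest mean log2 probe level were SNORD36A (9.10), SNORD80 (8.84), SNORD96A (8.52), SNORD68 (8.23) and SNORD104 (7.86). The lowest was SNORD54 at 4.82. Levels of different probes also depend on the probe, so this order is not an order of RNA amounts.

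Averaged over the 33 members detected on every array, the probe level was slightly higher at 4 h and lower at 8 h in both lines. In wt cells the 3 arrays averaged 6.93 ± 0.11 untreated, 7.08 ± 0.04 at 4 h and 6.60 ± 0.05 at 8 h (mean log2 level ± SD, n = 3). In S547A cells the means were 6.86 ± 0.04, 6.98 ± 0.06 and 6.52 ± 0.02. Every array of 8 h lay below every array of the other 2 times, from 6.50 to 6.65 against 6.81 to 7.10, while untreated and 4 h arrays lay closer together. The array of untreated wt replicate 3 was the lowest untreated one (6.81) and had 46 members detected, against 59 on each of the other 2. Fewer members were detected in wt cells at 8 h (45 to 47) than at 4 h (55 or 56), and in S547A cells 48 to 51 at 8 h and 49 to 54 at 4 h. The arrays hold RNA of whole cultures scaled to a common distribution, so less RNA per cell and fewer cells with the RNA cannot be told apart, and a change is relative to other transcripts.

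**Figure D1:**
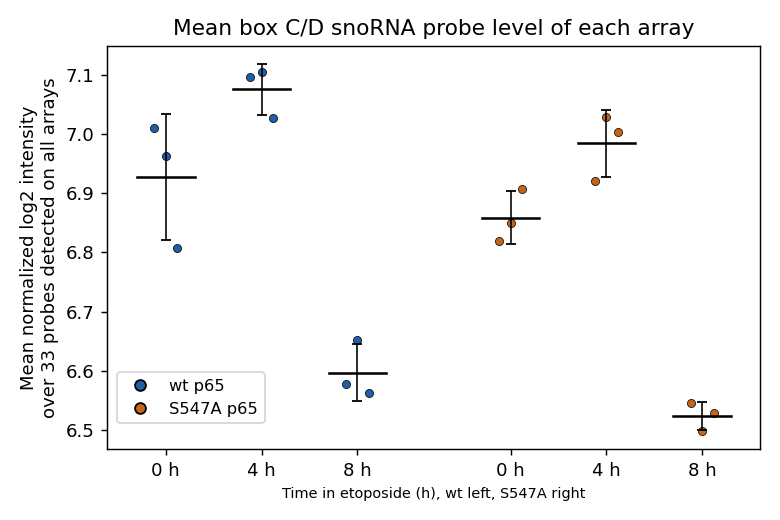
Mean normalized log2 probe level of the 33 box C/D snoRNAs detected on all arrays (vertical axis), for each array of wt (left) and S547A cells (right) at 0, 4 and 8 h of etoposide. Points are arrays, bars the mean and SD of 3; the arrays of 8 h lie between 6.50 and 6.65, below all others.

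Changes of single members were tested with limma across all 12055 genes, with p-values adjusted over all of them by Benjamini-Hochberg, and "called" below means an adjusted p under 0.05. At 4 h against untreated, 4 members of 71 (5.63%) rose and 0 fell in wt cells, where 6.25% of all genes rose and 4.17% fell (10.4% in either direction). Of these 4, SNORD95 met the detection rule through its 4 h arrays. Among the 62 members detected on at least 3 arrays outside the 4 h groups, a set chosen after seeing the data, 3 rose and 0 fell. In S547A cells 3 of the 71 (4.23%) rose and 1 (1.41%) fell, against 5.67% and 3.83% of all genes (9.51%). The same 3 and 1 were among the 62. With 1 array left out the number called ran from 2 to 5 in wt cells (2 without untreated replicate 2 or 3) and from 1 to 7 in S547A cells (1 without untreated replicate 1 or 2 or 4 h replicate 3, and 7 without 4 h replicate 1). At 8 h, 2 (2.82%) rose and 9 (12.7%) fell in wt cells, against 16.5% and 13.2% of all genes (29.7%), and 2 (2.82%) rose and 13 (18.3%) fell in S547A cells, against 16.1% and 14.3% (30.5%). With arrays scaled to a common median in place of quantile normalization, the calls at 8 h were 2 higher and 5 lower in wt cells, with 16.8% and 7.86% of all genes, and 3 higher and 6 lower in S547A cells, with 19.4% and 5.76%. The wt calls at 4 h were then 2 higher and 0 lower, with 2.21% and 4.51% of all genes. In the authors' normalized table those of S547A cells at 4 h were 1 higher and 1 lower, with 6.35% and 4.58% of all genes. With quantile normalization the shares of all 71 members that fell at 8 h lay near the background, and the shares that rose lay below it. The falls were unevenly spread by detection. Of the 33 members detected on all 18 arrays, 8 (24.2%) fell in wt and 12 (36.4%) in S547A cells. Of the 38 detected on 3 to 17 arrays, 1 (2.63%) fell in each line. The matching share among all genes detected on all arrays is not given here. Over the 71 members the median log2 change at 4 h and 8 h came to 0.13 and -0.24 for wt and to 0.14 and -0.20 for S547A, and between -0.01 and 0.00 over all genes.

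The share of members that fell lay farthest from the background in the step from 4 h to 8 h, averaged over the lines. This step draws on 12 arrays and each comparison with untreated cells on 6, so its estimates are more precise. The SE of SNORD104, for example, was 0.12 in this step and 0.17 at 8 h in wt cells. Of the 71 members, 28 (39.4%) fell and 1 (1.41%) rose, against 12.6% and 15.4% of all genes (28% in either direction). The median log2 change was -0.35 over the members and 0.00 over all genes, and 61 of 71 members were below 0, as were 5969 of 12055 genes. Among the 33 members detected on all arrays, 21 (63.6%) fell and 0 rose, with a median of -0.48. The share of all genes detected on all arrays that fell is not given here, so this subset has no matched background. In wt cells the 3 arrays of 8 h lay wholly below those of 4 h for 31 members and wholly above for 0, against 14.5% and 18.2% of all genes. In S547A cells the numbers were 21 and 1, against 14.4% and 15.4%. The 8 h level was also below the untreated one without overlap for 22 members in wt and 17 in S547A cells (20.6% and 20.4% of all genes), and above it for 2 and 5 (23.4% and 21.5%). At 4 h, 10 and 11 members lay above the untreated arrays without overlap (15.9% and 13.5% of all genes) and 2 and 3 below (14.3% and 12%). Those above include SNORD95 in both lines and SNORD100 in wt cells, which the detection rule took in through their 4 h arrays. Among those above in S547A cells, SNORD12, SNORD34, SNORD51 and SNORD113-4 were not detected on any untreated or 4 h array of that line. Their differences there are between levels near background. SNORD34 met the detection rule with the help of 4 h arrays of wt cells. With median scaling, 18 members fell and 1 rose from 4 h to 8 h, while 5.1% of all genes fell and 19.4% rose. In a count chosen after seeing the data, 62 members were detected on at least 3 arrays outside the 4 h groups, and 26 of these fell and 1 rose. The other 9 include SNORD95 and SNORD100, which count among the 28 and which the detection rule took in through their 4 h arrays.

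**Figure D2:**
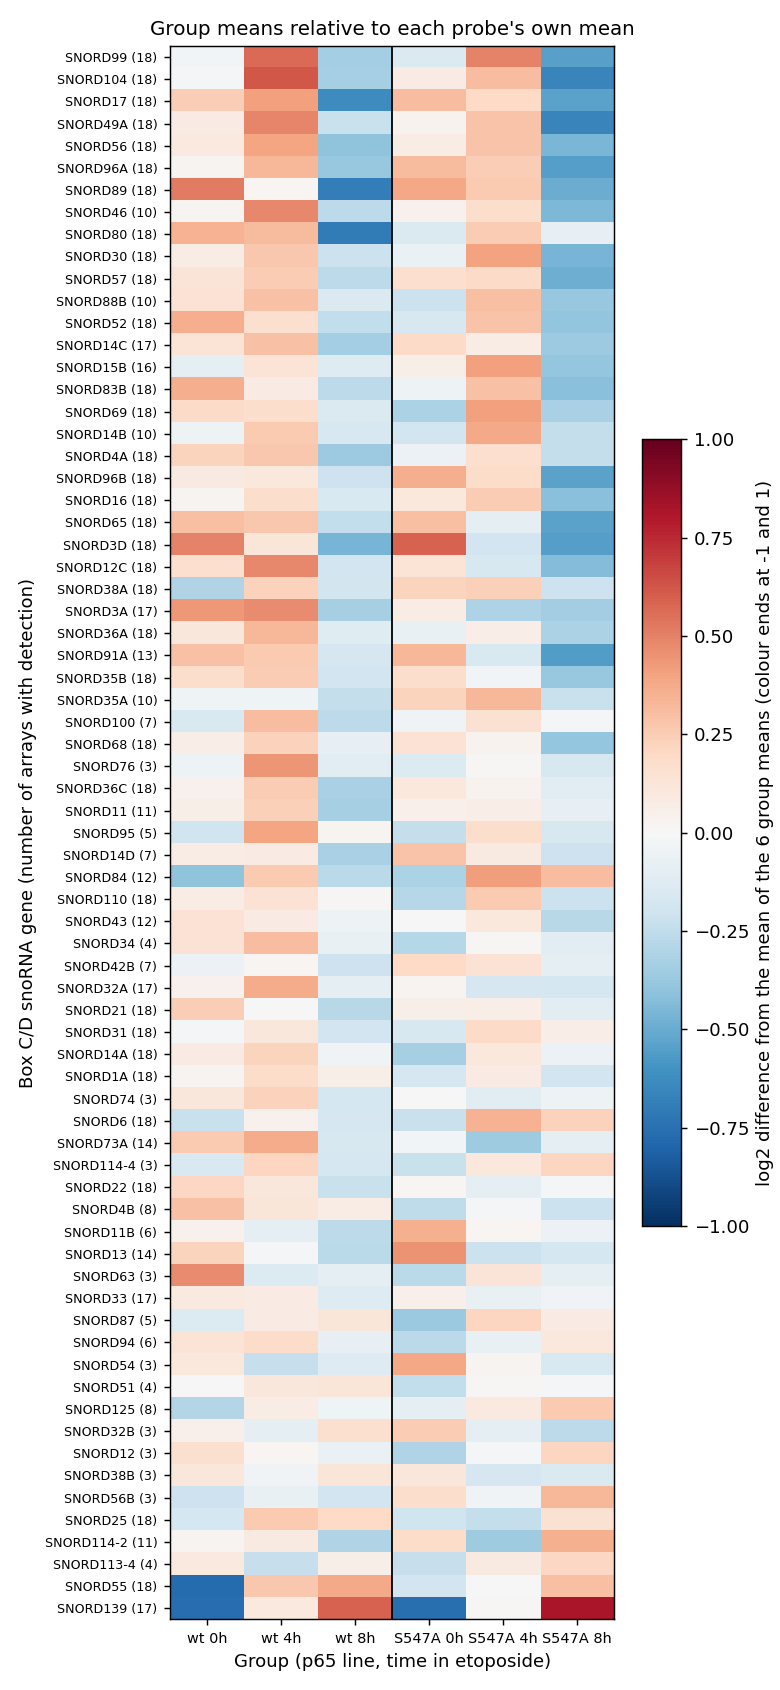
Group means of all 71 members relative to each probe's own mean over the 6 groups (colour, log2 difference), sorted by the change from 4 h to 8 h, with the number of arrays of detection in brackets. SNORD99 and SNORD104 at the top are high at 4 h and low at 8 h in both lines. Other probes that fall from 4 h to 8 h, such as SNORD3D, are highest in untreated cells, while SNORD139 at the bottom is highest at 8 h.

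SNORD3A and SNORD3D encode U3, which pairs with the rRNA precursor and is needed for the early cleavages that free the small-subunit rRNA. The probe for SNORD3D read 6.56, 6.90 and 6.92 untreated, 6.52, 6.17 and 6.57 at 4 h and 6.00, 6.01 and 5.48 at 8 h in wt cells. In S547A cells it read 6.87, 6.96 and 6.82, then 6.02, 6.08 and 6.22, and then 5.70, 5.78 and 5.77. In S547A cells the 3 times were fully separated, and in wt cells the arrays of 8 h lay below all others. SNORD3D fell by 0.97 ± 0.15 in wt cells at 8 h (log2 change ± SE; limma adjusted p = 0.000157). In S547A cells it fell by 0.78 at 4 h and fell by 1.14 ± 0.15 at 8 h (adjusted p = 0.00336 and 3.22e-05). These 3 calls held without any one of the 6 arrays each compares. SNORD3D had the smallest adjusted p of the members in each of these 3 comparisons.

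The SNORD3A probe fell in wt cells at 8 h, from 6.41 ± 0.43 to 5.64 ± 0.39 (adjusted p = 0.0434). The call ended without untreated replicate 2 or 3 or 8 h replicate 1 or 3 of wt (adjusted p up to 0.206), as well as under median scaling and with no filter on detection. In S547A cells its level was 6.05 ± 0.34 untreated and 5.63 ± 0.49 at 8 h, and the line difference in that response was 0.35 ± 0.39 (adjusted p = 0.861). SNORD3A and SNORD3D are near-identical copies, and which copies a probe binds was not tested. SNORD13, which guides acetylation of the small-subunit rRNA, was detected on 14 arrays and was called in 0 of the 10 comparisons, with log2 differences of -0.24 and -0.50 in wt and -0.66 and -0.62 in S547A cells at 4 h and 8 h. The fourth member with no containing gene, SNORD32B, was detected on 3 arrays and was not called either.

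SNORD139, which lies in RPL3, rose in all 5 comparisons between times. Its probe read 5.18, 5.66 and 5.34 untreated, 6.04, 6.09 and 6.62 at 4 h and 7.03, 6.70 and 6.51 at 8 h in wt cells. In S547A cells it read 5.51, 5.03 and 5.69, then 6.22, 5.96 and 6.33, and then 6.99, 7.28 and 6.65. Every treated array lay above every untreated one, and in S547A cells the arrays of 8 h lay above those of 4 h. The rise at 8 h was 1.36 ± 0.22 in wt and 1.57 ± 0.22 in S547A cells (log2 change ± SE; limma adjusted p = 0.000159 and 3.85e-05), and these calls held without any one array. At 4 h it was 0.86 and 0.76 (adjusted p = 0.0157 and 0.0337). The wt call of 4 h ended without untreated replicate 1 or 3 or 4 h replicate 3 (adjusted p up to 0.0827). The S547A call of 4 h ended without untreated replicate 1 or 2 or 4 h replicate 1 or 3 (adjusted p up to 0.153), and also in the authors' table, without background correction, without the filter and with the compared groups alone. From 4 h to 8 h SNORD139 rose by 0.65 (adjusted p = 0.00405). It was detected on 17 arrays, all but 1 of untreated S547A cells.

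SNORD55, a guide for the large-subunit rRNA, rose in wt cells. It read 6.08, 6.20 and 5.93 untreated, 7.28, 6.89 and 7.15 at 4 h and 7.10, 7.30 and 7.25 at 8 h there. All 6 treated arrays of wt lay above the 3 untreated ones, by 1.04 ± 0.20 at 4 h and 1.15 ± 0.20 at 8 h (adjusted p = 0.00273 and 0.000337), and both calls held without any one array. In S547A cells it read 6.68, 6.27 and 7.00 untreated, 6.55, 6.91 and 7.07 at 4 h and 7.40, 6.74 and 7.28 at 8 h, with overlap between the groups and differences of 0.19 and 0.49 that were not called. The responses of S547A and wt cells differed by -0.84 ± 0.28 at 4 h and -0.66 ± 0.28 at 8 h, which did not pass (adjusted p = 0.799 and 0.654). Untreated S547A cells were 0.58 above untreated wt cells for this probe, also not called (adjusted p = 0.718).

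**Figure D3:**
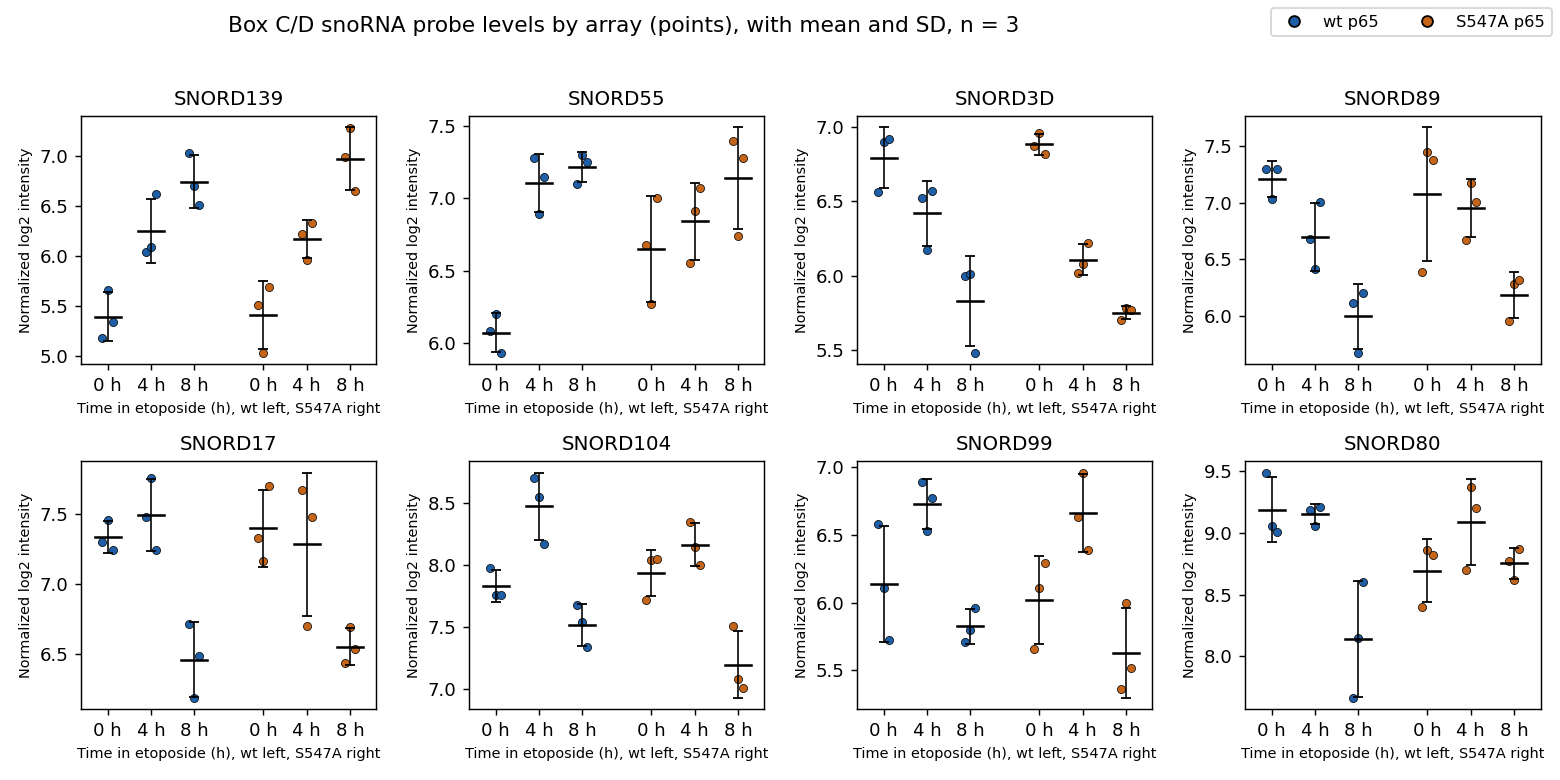
Normalized log2 probe level (vertical axes, each on its own scale) of 8 members on each array, by time in etoposide, wt on the left and S547A on the right of each panel, with mean and SD of 3 arrays. At 8 h the means of SNORD139 are 6.75 and 6.97 and those of SNORD3D 5.83 and 5.75, and SNORD104 and SNORD99 are higher at 4 h than at 8 h.

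SNORD104, a guide for the large-subunit rRNA in SNHG25, read 7.98, 7.76 and 7.76 untreated, 8.70, 8.55 and 8.17 at 4 h and 7.68, 7.54 and 7.34 at 8 h in wt cells. In S547A cells it read 7.72, 8.04 and 8.05, then 8.35, 8.15 and 8.00, and then 7.51, 7.08 and 7.01. In both lines the arrays of 8 h lay below those of the other times without overlap. SNORD104 fell by 0.96 ± 0.12 from 4 h to 8 h (log2 change ± SE over both lines; limma adjusted p = 2.56e-05), the smallest adjusted p of the members in that comparison, with changes of -0.95 in wt and -0.97 in S547A cells. It rose by 0.64 in wt cells at 4 h (adjusted p = 0.0214) and fell by 0.74 in S547A cells at 8 h (adjusted p = 0.0031). The wt call of 4 h ended without untreated replicate 2 or 3 or 4 h replicate 1 or 2 (adjusted p up to 0.106), under median scaling (0.148) and with the compared groups alone (0.0547). The S547A call held without any one array and ended under median scaling (0.0721).

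SNORD99, a large-subunit guide in SNHG12, read 6.58, 6.11 and 5.72 untreated, 6.89, 6.53 and 6.77 at 4 h and 5.71, 5.80 and 5.96 at 8 h in wt cells, and 5.66, 6.11 and 6.29, then 6.63, 6.96 and 6.39, and then 5.36, 6.00 and 5.52 in S547A cells. The arrays of 4 h lay above those of 8 h in both lines, while untreated and 8 h arrays overlapped. It fell by 0.97 ± 0.16 from 4 h to 8 h (adjusted p = 0.000265) and was called in no comparison with untreated cells.

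SNORD17, a large-subunit guide and the longest member at 237 bases, lies in SNX5, which encodes a sorting nexin. It read 7.30, 7.46 and 7.24 untreated, 7.48, 7.76 and 7.24 at 4 h and 6.71, 6.18 and 6.48 at 8 h in wt cells. In S547A cells it read 7.33, 7.16 and 7.70, then 7.67, 6.70 and 7.48, and then 6.43, 6.69 and 6.53. The arrays of 8 h lay below all others of their line, and in S547A cells the lowest array of 4 h (6.70) lay next to the highest of 8 h (6.69). SNORD17 fell at 8 h by 0.88 ± 0.22 in wt and by 0.84 ± 0.22 in S547A cells (adjusted p = 0.00614 and 0.00785) and by 0.89 from 4 h to 8 h (adjusted p = 0.000495). These calls held without any one array, and the S547A call at 8 h ended under median scaling (adjusted p = 0.0904).

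SNORD80, a large-subunit guide in GAS5, fell in wt cells at 8 h. It read 9.49, 9.06 and 9.01 untreated, 9.19, 9.06 and 9.21 at 4 h and 7.66, 8.15 and 8.60 at 8 h in wt cells, against 8.40, 8.86 and 8.82, then 8.70, 9.37 and 9.20, and then 8.77, 8.62 and 8.87 in S547A cells. The wt arrays of 8 h lay below the other wt arrays, and the S547A groups overlapped. It fell by 1.05 ± 0.22 in wt cells at 8 h (adjusted p = 0.00155), without any one array as well, and the S547A difference was 0.06 ± 0.22. The difference between the 2 responses was 1.11 ± 0.31, the largest among the members at 8 h, and did not pass (adjusted p = 0.511). From 4 h to 8 h SNORD80 fell by 0.68 over both lines (limma adjusted p = 0.00332), with changes of -1.02 in wt and -0.34 in S547A cells.

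SNORD96A, a large-subunit guide in RACK1, read 8.84, 8.79 and 8.91 at 4 h and 8.05, 8.18 and 8.17 at 8 h in wt cells, and 8.99, 8.54 and 8.76 and then 7.83, 7.96 and 8.11 in S547A cells. It fell by 0.76 ± 0.11 (adjusted p = 8.72e-05), and its S547A arrays of 8 h also lay below the untreated ones (fell by 0.87, adjusted p = 0.000376). Of other large-subunit guides, SNORD49A fell by 0.82, SNORD46 and SNORD30 by 0.68 each, SNORD88B by 0.56, SNORD52 by 0.54, SNORD15B by 0.53, SNORD69 by 0.52 and SNORD35B by 0.40, and SNORD96B, a copy of SNORD96A, by 0.52 (adjusted p from 0.00446 to 0.0363). The call ended for SNORD88B without wt 4 h replicate 2 or 3, wt 8 h replicate 3, S547A 4 h replicate 1 or 3 or S547A 8 h replicate 3 (adjusted p up to 0.0829). It ended for SNORD15B without wt 4 h replicate 1, 2 or 3, wt 8 h replicate 3, S547A 4 h replicate 2 or S547A 8 h replicate 1 or 2 (up to 0.0952), and for SNORD96B without wt 4 h replicate 1 or 2 or wt 8 h replicate 1 (up to 0.0616). Under median scaling the calls of SNORD15B, SNORD35B, SNORD69 and SNORD96B in this step ended (adjusted p from 0.0881 to 0.169), as did that of SNORD15B with no filter and that of SNORD88B with the compared groups alone.

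Some large-subunit guides were called against untreated cells. SNORD52 fell in wt cells at 8 h, from 7.05 ± 0.31 to 6.45 ± 0.12 (adjusted p = 0.0179), a call that ended without untreated replicate 1 or 8 h replicate 1 or 2 of wt (adjusted p up to 0.101) and under median scaling (0.0587). SNORD69 rose in S547A cells at 4 h, from 6.11 ± 0.34 to 6.83 ± 0.51 (adjusted p = 0.0415), a call that ended without untreated replicate 1 or 2 or 4 h replicate 2 or 3 (up to 0.178), with no filter (0.0622) and with the compared groups alone (0.206). SNORD96B fell in S547A cells at 8 h, from 6.44 ± 0.21 to 5.54 ± 0.03 (adjusted p = 0.0054), and this held without any one array. SNORD35B fell there by 0.56 (adjusted p = 0.0103), a call that ended without untreated replicate 1 (0.0596), under median scaling (0.215) and with the compared groups alone (0.0509). SNORD91A was not detected on any S547A array of 8 h, where it was at least 1.53-fold lower than untreated (measured means 4.94 and 5.82, adjusted p = 0.00524). SNORD95 was detected on 5 arrays, of which 4 were 4 h arrays, so the rule used the same values as its difference, which is given as a description. Its mean was 4.90 in untreated wt cells, where it was not detected, and 5.49 at 4 h, at least 1.22-fold higher, and it differed by -0.35 between 4 h and 8 h. Such bounds set the brighter group's mean against the lowest detected level of each array of the other group, or the probe's own value where that was higher.

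SNORD65, a guide for the small-subunit rRNA in SNHG29, read 7.69, 7.80 and 7.32 untreated, 7.59, 7.61 and 7.51 at 4 h and 6.99, 7.17 and 7.00 at 8 h in wt cells, and 7.72, 7.53 and 7.56, then 7.43, 7.05 and 7.15, and then 6.75, 6.84 and 6.72 in S547A cells. Its arrays of 8 h lay below all others of their line, and in S547A cells those of 4 h lay between. It fell at 8 h by 0.55 ± 0.13 in wt and by 0.84 ± 0.13 in S547A cells (limma adjusted p = 0.00512 and 0.000163) and by 0.48 from 4 h to 8 h (adjusted p = 0.0012). The wt call at 8 h and the call from 4 h to 8 h ended under median scaling (adjusted p = 0.102 and 0.0948). The small-subunit guides SNORD56 and SNORD57, both in NOP56, fell by 0.77 and by 0.60 from 4 h to 8 h (adjusted p = 0.000499 and 0.00409), and SNORD110, in the same gene, gave -0.30 (adjusted p = 0.205).

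Of other small-subunit guides, SNORD4A fell by 0.52, SNORD16 by 0.50 and SNORD36A by 0.42 from 4 h to 8 h, and SNORD68, which has sites in both subunits, by 0.37 (adjusted p from 0.00329 to 0.0272). All 4 calls ended under median scaling (adjusted p from 0.0687 to 0.327). SNORD100 was detected on 7 arrays, 5 of them at 4 h, so its difference of -0.37 in this step is a description too. SNORD14B and SNORD14C, copies of U14, which is also needed for processing of the small-subunit rRNA, fell by 0.52 and by 0.54 (adjusted p = 0.0126 and 0.028), while SNORD14A and SNORD14D gave -0.21 and -0.35 and were not called. The call ended for SNORD36A without wt 8 h replicate 1 or S547A 8 h replicate 2 (adjusted p up to 0.0596). It ended for SNORD68 without wt 4 h replicate 1, wt 8 h replicate 3, S547A 4 h replicate 1 or S547A 8 h replicate 2 or 3 (up to 0.0775). For SNORD14C it ended without wt 4 h replicate 1 or 2, wt 8 h replicate 1 or 3, S547A 4 h replicate 2 or S547A 8 h replicate 3 (up to 0.0756).

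Against untreated cells, SNORD4A fell in wt cells at 8 h (7.65 ± 0.18 to 7.06 ± 0.01, adjusted p = 0.0138), a call that ended without untreated replicate 2 (0.0675) and under median scaling (0.0926). In S547A cells at 8 h SNORD16, SNORD56, SNORD57 and SNORD68 fell by 0.52, by 0.53, by 0.66 and by 0.53 (adjusted p from 0.0177 to 0.0475). None of these 4 calls held for every array left out. SNORD16 lost it without untreated or 8 h replicate 2 (adjusted p up to 0.12), SNORD57 without untreated replicate 1 or 8 h replicate 2 or 3 (0.0796), and SNORD68 without untreated replicate 1 or 2 or 8 h replicate 2 or 3 (0.0947). SNORD56 lost it without any of the 3 untreated arrays or 8 h replicate 1 or 2 (0.195). Each of the 4 also lost its call under median scaling (adjusted p from 0.128 to 0.384), SNORD16, SNORD56 and SNORD68 with the compared groups alone, and SNORD56 also in the authors' table, without background correction, at an offset of 50, with no filter and with the replicate number as a block (0.0595).

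Among the remaining called members, SNORD89, in RNF149, had the largest fall of the members in wt cells. It read 7.30, 7.03 and 7.30 untreated, 6.68, 6.41 and 7.01 at 4 h and 6.11, 5.67 and 6.20 at 8 h in wt cells, and 6.39, 7.45 and 7.38, then 6.67, 7.17 and 7.01, and then 5.95, 6.28 and 6.32 in S547A cells. The 8 h arrays lay below the others in both lines, and untreated S547A replicate 1 (6.39) lay well below its repeats. SNORD89 fell at 8 h by 1.21 ± 0.24 in wt and by 0.89 ± 0.24 in S547A cells (adjusted p = 0.00124 and 0.011). The wt call held without any one array, and the S547A call ended without untreated replicate 2 or 3 (adjusted p up to 0.0607). From 4 h to 8 h it fell by 0.74 (adjusted p = 0.00425).

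SNORD83B, in RPL3, fell by 0.63 in wt cells at 8 h (7.08 ± 0.23 to 6.46 ± 0.21, adjusted p = 0.00893) and by 0.53 from 4 h to 8 h (adjusted p = 0.00304). The wt call ended without untreated or 8 h replicate 3 (adjusted p up to 0.0533). It lies in the same host as SNORD139, which rose, and SNORD43, which gave -0.25 from 4 h to 8 h and was not called. Whether members of one host differ was not tested. SNORD84, in DDX39B, rose in S547A cells by 0.74 at 4 h and by 0.63 at 8 h (5.15 ± 0.35 untreated, 5.88 ± 0.28 and 5.78 ± 0.24, adjusted p = 0.0393 and 0.0344) and was detected on 1 of the 3 untreated arrays. The 4 h call ended without untreated replicate 1 or 2 or 4 h replicate 2 or 3 (adjusted p up to 0.17), and the 8 h call without untreated replicate 1 or 2 or 8 h replicate 1 or 3 (up to 0.164). Both also ended in the authors' table, without background correction, with no filter and with the compared groups alone, and the 4 h call under median scaling (0.0524). In wt cells SNORD84 gave 0.66 and 0.13, not called.

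In all, 33 members were called in at least 1 comparison, 22 of them detected on all 18 arrays, and 38 were called in none. The share of all genes called in at least 1 comparison is not given here, so whether 33 is more than the background was not tested. The largest difference of these 38 in the 4 responses was the -0.66 of SNORD13. The 3 members of the imprinted MEG8 cluster, SNORD113-4, SNORD114-2 and SNORD114-4, gave 0.20, 0.16 and -0.14 from 4 h to 8 h and were not called. By host class, 12 of 28 members in ribosomal protein genes, 8 of 17 in noncoding hosts and 7 of 19 in other protein genes fell from 4 h to 8 h, with medians of -0.36, -0.47 and -0.35. Differences between these classes were not tested.

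Host transcripts were set beside their snoRNAs. Of the 41 hosts, 33 were among the tested genes, which made 54 pairs of a member with its host. From 4 h to 8 h the member fell while the host rose in 7 pairs, both fell in 2, the member fell with its host not called in 10, and the host rose with the member not called in 11. In 47 of 54 pairs the member's difference lay below the host's, which was not tested, and the median change was -0.31 for members and 0.06 for their hosts. At 8 h against untreated the member fell while the host rose in 2 pairs in wt and 4 in S547A cells, and at 4 h in 0 pairs in either line. Hosts that were not among the tested genes, such as RACK1, SNHG25 and SNHG29, were not analysed here. Across the 54 pairs, which share hosts and arrays, member and host differences had a Pearson r of -0.10 from 4 h to 8 h and of 0.20, 0.02, 0.23 and 0.04 in wt at 4 h and 8 h and in S547A at 4 h and 8 h.

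**Figure D4:**
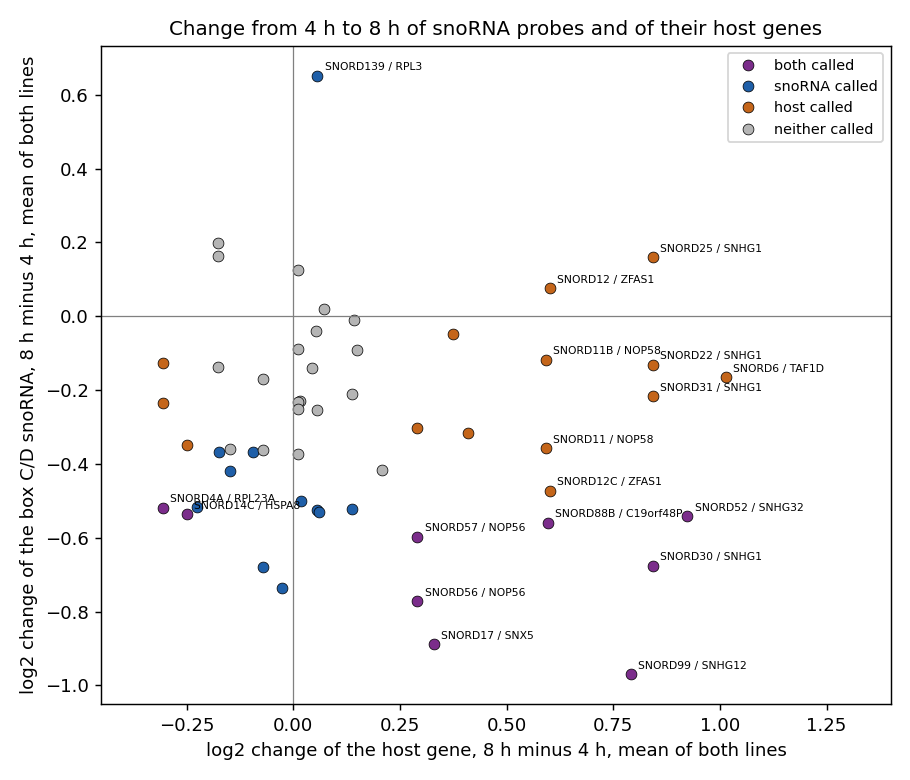
Change from 4 h to 8 h of each snoRNA probe (vertical axis) against that of its host gene (horizontal axis), both as log2 changes averaged over the lines, for 54 pairs; colours show which of the 2 was called. Pairs such as SNORD99 with SNHG12 (-0.97 and 0.79) and SNORD52 with SNHG32 (-0.54 and 0.92) lie in the lower right.

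SNHG12, the noncoding host of SNORD99, rose from 6.62 ± 0.29 to 8.80 ± 0.28 and 9.68 ± 0.19 in wt and from 6.80 ± 0.04 to 8.85 ± 0.32 and 9.56 ± 0.13 in S547A cells, and by 0.79 from 4 h to 8 h (limma adjusted p = 0.000255), where SNORD99 fell by 0.97. SNHG1 rose from 10.55 ± 0.07 to 12.49 ± 0.10 in wt and from 10.82 ± 0.09 to 12.62 ± 0.05 in S547A cells at 8 h. Of its 4 members SNORD30 fell by 0.68 from 4 h to 8 h, while SNORD22, SNORD25 and SNORD31 gave -0.13, 0.16 and -0.22 and were not called. SNORD22 is U22, needed for small-subunit rRNA processing in frog oocytes. SNHG32, host of SNORD52, rose by 0.92 from 4 h to 8 h (adjusted p = 9.88e-07, 0.95 with its other probe), and C19orf48P, host of SNORD88B, by 0.60.

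NOP56, which encodes a core protein of the box C/D particle, rose by 0.29 from 4 h to 8 h (adjusted p = 0.0301, and 0.23 and 0.34 with its other probes) while SNORD56 and SNORD57 in its introns fell. SNX5 rose by 0.33 (adjusted p = 0.0174), but by 0.05 with its other probe, beside SNORD17, which fell by 0.89. TAF1D, which encodes a subunit of an RNA polymerase I initiation factor, rose by 1.01 and its SNORD6 gave -0.17, not called. ZFAS1 rose by 0.60, and its SNORD12C and SNORD12 gave -0.47 and 0.08, not called. In RPL3 (levels from 13.96 to 14.10 over the 6 groups) and GAS5 (detected on 3 arrays) the host was not called while a member moved. The 2 pairs in which both fell were SNORD4A with RPL23A and SNORD14C with HSPA8.

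Genes for the box C/D particle and for snoRNA processing were read from lists, each counted against the all-gene shares given above. Of the 5 core proteins, NOP56 and NOP58 rose by 0.29 and 0.59 from 4 h to 8 h, and RRP9, a protein of the U3 particle, fell by 0.55 (adjusted p = 0.02). FBL, the methyltransferase fibrillarin, gave -0.05. At 8 h against untreated cells NOP56 and NOP58 rose in both lines, and RRP9 fell in S547A cells. Of 13 assembly factors, 3 rose and 0 fell from 4 h to 8 h, with a median of -0.01, and 5 rose in each line at 8 h, with 1 that fell in wt. NUFIP1 rose by 1.09 and ZNHIT6 by 0.79, both factors that bring the core proteins onto the RNA (adjusted p = 4.59e-05 and 5.74e-06), and XPO1, an export receptor, fell by 0.54 in wt cells at 8 h (adjusted p = 0.0106).

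Of 21 tested genes for snoRNA release, trimming and decay, 4 rose and 1 fell from 4 h to 8 h, with a median of 0.18, while at 8 h wt cells had 7 higher and 1 lower and S547A cells 6 higher and 1 lower. ZCCHC8, of the nuclear exosome targeting complex, and ZCCHC7, of the polyadenylation complex that feeds the exosome, both rose by 0.83, and PABPN1, a nuclear poly(A) binding protein, fell by 0.37. PARN, a deadenylase that trims RNA ends, fell in all 4 responses, by 0.53 and by 0.43 in wt and by 0.79 and by 0.77 in S547A cells. DBR1, which opens intron lariats, rose by 0.83 and 0.76 at 8 h in the 2 lines. Of 23 genes of the small subunit processome, the complex around U3 on the rRNA precursor, 3 rose and 2 fell from 4 h to 8 h, with MPHOSPH10 at 0.66, UTP3 at 0.49 and FCF1 at -0.58, and in each line 4 rose and 1 fell at 8 h. The list of SNHG transcripts and GAS5 had 9 of 15 that rose and 0 that fell, with a median of 0.41.

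The other classes of small guide RNA served for comparison. Of 57 tested box H/ACA snoRNAs, which guide pseudouridylation, 16 (28.1%) fell and 0 rose from 4 h to 8 h, with a median of -0.31, against 28 of 71 and -0.35 for box C/D. SNORA61 fell by 1.05, from 9.65 ± 0.13 to 8.51 ± 0.10 in wt and from 9.46 ± 0.09 to 8.51 ± 0.07 in S547A cells (adjusted p = 2.21e-07). Of 12 Cajal body RNAs, which guide modification of spliceosomal RNAs, 0 were called from 4 h to 8 h, with a median of -0.22. In that step 1 was at an unadjusted limma p under 0.05, where 38.3% of all genes were. Against untreated cells, 2 of the 12 (16.7%) fell in wt at 8 h, where 13.2% of all genes fell. In S547A cells 1 (8.33%) rose at 4 h and 1 at 8 h, where 5.67% and 16.1% of all genes rose. Whether the classes differ was not tested.

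No member of the 71 was called by limma in the 5 comparisons between lines, which were S547A against wt untreated, at 4 h and at 8 h, and the interaction of line and etoposide at 4 h and at 8 h. The all-gene shares were 0.0415%, 0.083%, 0.108%, 0.0166% and 0.0249%, so few genes of any kind passed. At an unadjusted p under 0.05 there were 8, 5, 4, 6 and 3 members (11.3%, 7.04%, 5.63%, 8.45% and 4.23%), against 6.19%, 5.04%, 6.55%, 5.59% and 7.44% of all genes. The smallest adjusted p of a member was 0.718 (SNORD55), 0.609 (SNORD73A, with -0.73 ± 0.22), 0.67 (SNORD80), 0.799 (SNORD55) and 0.511 (SNORD80). Median differences over the members were -0.03, -0.10 and -0.03 at the 3 times. With 3 arrays a group, a difference that misses the threshold does not show that the lines act alike.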

How the data were processed

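The deposited table gives, per the file headers, 1 linear intensity and 1 detection p-value per probe for each of 18 arrays, and its values look unnormalized. The submitters' processing notes name GenomeStudio without a version. The authors' second deposited table holds intensities normalized between arrays. Per the labels' protocols RNA came from the RNeasy Mini kit and was amplified with the TotalPrep-96 kit. No genome build is given in the sources used here.

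Of 47231 probes, 30112 had 1 gene symbol in the platform annotation, 8 had several and 17111 none, and 30073 matched the RefSeq table of GRCh38.p14. From the deposited intensities, neqc (limma 3.58.1, R 4.3.3, offset 16) inferred the background through the detection p-values, applied quantile normalization and took log2. Kept were 22161 probes detected (p under 0.05) on 3 or more arrays, 16005 of them with 1 symbol, and each of the 12055 genes tested is represented by its brightest kept probe. No member had more than 1 kept probe. Group means were fitted to all 18 arrays with limma (12 residual degrees of freedom), in 10 comparisons, two-sided, with Benjamini-Hochberg adjustment over all genes. The fit was tested on simulated data with 200 genes changed. Figures were drawn with matplotlib 3.10.9 in Python 3.11.15.

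The members and the lists were chosen with earlier results of these data known. Named with values are the called members (the 20 with the largest changes in full), the 5 highest levels, the SNORD3 genes and SNORD13, genes at the edge of the rule, hosts, and up to 2 called genes per list and direction, with further list genes named after their values were seen. Hosts were to be matched on strand, but the gene table has none, so strand was not compared. The table holds no member sequence. Replicate numbers were not used as pairs, since the labels tie no number to a shared batch. The deviations of same-numbered arrays of different groups correlated at -0.08 to 0.21. Their median was 0.07, against -0.04 for arrays with other numbers. An effect shared by a repeat would be left out of the main fit, and a replicate block was run as an alternative. Alternatives were the authors' table, median scaling after normexp, no background correction, an offset of 50, no filter, detection on all arrays, the mean of kept probes, a replicate block, the compared groups alone and each array left out. The number of arrays limits the precision.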

Additional observations from a re-analysis of the deposited data

How the results depend on the processing

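Of 63 single calls of members, 39 held for every array left out and 34 under every other setting, and 0 changed direction in any. Median scaling after normexp, which moves the median change of all genes by up to 0.11 in the 4 responses (-0.11 in wt at 4 h, 0.11 in S547A at 8 h) and by 0.09 from 4 h to 8 h, lost 24 of the 63 calls, and only the compared groups lost 10. Under median scaling 2 members were called in wt at 4 h, 7 in wt at 8 h (2 higher, 5 lower, in place of 2 and 9), 9 in S547A at 8 h (3 higher, 6 lower, in place of 2 and 13) and 19 from 4 h to 8 h (1 higher, 18 lower). Its member and all-gene medians from 4 h to 8 h were -0.25 and 0.09. With detection on all arrays, 33 members were tested and 2 were called in wt at 4 h, in place of 4. In S547A at 4 h, 2 were called in the authors' table and without background correction (1 higher and 1 lower in both, in place of 3 and 1), and 1 with no filter and with the compared groups alone. The filter settings change the genes tested. The compared groups alone use fewer arrays and a spread estimated from those groups only. Why calls were lost under any setting was not tested.

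With 1 array left out, the count ran from 2 to 5 in wt at 4 h, from 9 to 11 in wt at 8 h, from 1 to 7 in S547A at 4 h, from 10 to 15 in S547A at 8 h and from 25 to 31 from 4 h to 8 h, and stayed at 0 in the 5 comparisons between lines. In wt at 4 h it was 2 without untreated replicate 2 or 3. In S547A at 4 h it was 1 without untreated replicate 1 or 2 or 4 h replicate 3 and 7 without 4 h replicate 1. With the replicate number as a block, 6, 11, 4, 15 and 30 members were called in the comparisons between times and 0 between lines. Each array's deviations from its group mean were also correlated with those of arrays in other groups, averaged by replicate number. For 14 of 18 arrays this average was highest for their own number. The slide as a block was not run, since the headers give no slide. Members near background have little signal to change: 38 of the 71 were undetected on at least 1 array.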

Other observations

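The genes whose 6 group means ran closest to the average of the 33 called members were TPST2 (a tyrosylprotein sulfotransferase gene, Pearson r = 0.998), HSPA1B (a heat shock protein gene, r = 0.996) and the box H/ACA snoRNA SNORA62 (r = 0.996), among the tested genes other than the members and over 6 points.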
